A study of Mus musculus with 2 samples.

Results

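The numbered Zfp genes are the mouse genes whose RefSeq symbol is Zfp followed by a number. Gene probes of the arrays were named through their accessions, and symbols of this form were kept, with Zfp42 left out. The rule gave 114 genes on 120 probes, of 10137 named genes and 21028 probes tested, and none of the 114 was lost to a spot marked as an outlier. The gene table lists 405 symbols of this form, so most of the family is not analysed here.

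Most of these genes encode proteins with arrays of Cys2His2 zinc fingers, small loops that hold a zinc ion and read DNA bases. Many mouse members also carry a KRAB domain, which binds the co-repressor Trim28 and through it the histone methyltransferase Setdb1. In ES cells this system keeps endogenous retroviruses silent and protects imprinted DNA methylation. Other genes share only the name, among them RNA-binding proteins and the CCCH-finger regulators of mRNA decay.

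RNA from EB5 mouse ES cells, grown without feeders on gelatin, was hybridised to 2 two-colour Agilent arrays (1 group, siKlf4 ES cells, n = 2). All cells had received Klf4 siRNA with the plasmid pCAGEGFP-IP, were cultured for 24 h, and were then selected in puromycin for 24 h. ES cell RNA carried Cy3 on both arrays and the reference, RNA pooled from 11 mouse cell lines of many tissues, carried Cy5. No ES cells without the siRNA were among the samples, so each ratio sets siKlf4 ES cells against the pool and holds no estimate of the effect of the siRNA. The labels do not say whether both samples came from separate cultures, so the p-values measure only the spread between these arrays, which may be technical. Ratios are log2 of ES cells over reference after background correction and loess, and a gene was called higher or lower when limma's adjusted p was under 0.05 and both arrays had the same sign. Both arrays have the same dye orientation, so a dye effect stays in every ratio.

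Klf4, the target of the siRNA, stood at 0.43 and 0.59 on the arrays, above the pool on both. Its mean of 0.51 was inside the range of the negative control spots given below. Of 9 measured ES cell markers, 8 were called higher and 7 were at least 2-fold higher, up to Tdgf1 at 5.98, while Fgf4 stood at 0.00. The remaining call, Esrrb at 0.27, was inside the range of the negative control spots and its signal passed their 95th percentile in neither channel. Of 7 measured fibroblast markers, 7 were called lower, from -4.78 to -0.56. Negative control spots have no mouse target. The 162 of them reached an absolute mean log2 ratio of 0.52, and 115 passed the adjusted p when tested with the probes. A call within 0.52 of 0 is therefore within the range of spots without a target, and counts beyond this range are given beside the plain counts. In these dim spots the ES channel read 129 and 138 units above local background at the median, against 28.5 and 32.3 in the reference.

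Several probes of these genes lie in the repeated finger sequence itself, which family members share. Both strands of each 60-base probe were searched for GAGAAACC, part of the linker that joins fingers, and TGTGGNAA, part of the loop that starts a finger (N is any base). On the sense strand 10 of 120 member probes held at least 1 of these motifs (8.33%), against 1.14% of all 21052 gene probes, and 4 member probes held both. On the other strand 1 member probe held the linker motif and 0 the finger motif. The probes of 6 such genes are printed because their signal may include RNA of relatives. They are given 5′ to 3′ as in the array files, with the motif bases in capitals.
Zfp947: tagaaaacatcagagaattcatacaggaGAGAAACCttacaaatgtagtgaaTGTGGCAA
Zfp825: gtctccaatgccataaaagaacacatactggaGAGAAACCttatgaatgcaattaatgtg
Zfp74: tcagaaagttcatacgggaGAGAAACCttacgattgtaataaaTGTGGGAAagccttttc
Zfp97: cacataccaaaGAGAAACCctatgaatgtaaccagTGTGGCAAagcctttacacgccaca
Zfp932: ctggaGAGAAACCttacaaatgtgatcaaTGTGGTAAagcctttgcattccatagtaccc
Zfp53: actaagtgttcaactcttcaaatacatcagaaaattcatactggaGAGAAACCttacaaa

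The printed genes are those with the linker motif, and 4 of the 6 printed probes also hold the finger motif. Zfp958 (0.44), Zfp37 (0.10) and Zfp120 (-0.20) hold only the finger motif and are not printed. The log2 ratios of the printed genes ran from 2.81 for Zfp947 to -0.11 for Zfp53, which did not pass (limma, adjusted p = 0.348). The 9 genes with either motif in the probe used had a median of 0.97, against 0.11 for the 105 without. Beyond the negative control range 55.6% and 21.0% were called higher, against 15.9% of named genes, and 0% and 8.57% lower, against 14.2%. Whether shared sequence adds to these ratios was not tested.

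The numbered Zfp genes lay more often above than below the reference. Of 114 genes, 76 (66.7%) had a mean log2 ratio above 0 and 38 (33.3%) below 0, whereas 49.1% of all named genes lay above. On both arrays alike, 72 were above and 32 below, and 10 changed sign between arrays. By limma 58 were called higher, 23 lower and 33 did not pass. The background over all probes tested was 31.6% called higher and 31.4% called lower, and among named genes 34.8% and 34.2%, against 50.9% and 20.2% of the members. The median of the members was 0.12 (quartiles -0.07 and 0.49), against -0.01 for all probes and for all named genes. These are descriptions of the list, without a test of the list against other genes. In such bulk RNA, fewer cells of a type in the pool and less RNA per cell cannot be told apart.

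Large ratios were also more frequent on the ES side. Beyond the range of the negative controls stood 27 called higher (23.7%) and 9 called lower (7.89%), against 12.1% and 10.8% of probes tested. Of the named genes 15.9% and 14.2% passed the same limit. A call of 2-fold or more was made for 15 genes on the ES side (13.2%) and for 3 on the reference side (2.63%). The background was 5.08% and 5.19% of probes, and 6.73% and 7.47% of named genes. For 2 of the 3, Zfp521 and Zfp9, the ES signal was under the 95th percentile of negative control signals, so their fitted ratios do not establish a 2-fold difference. The remaining 78 members lay within 0.52 of 0, which is 68.4% against 69.9% of named genes. As a whole the family sat near the pool, with a tail towards the ES cells. With background correction left out, 8 members were called 2-fold higher and 0 lower. The share of all probes under that setting is not given here, so these counts cannot be set against a background.

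**Figure D1:**
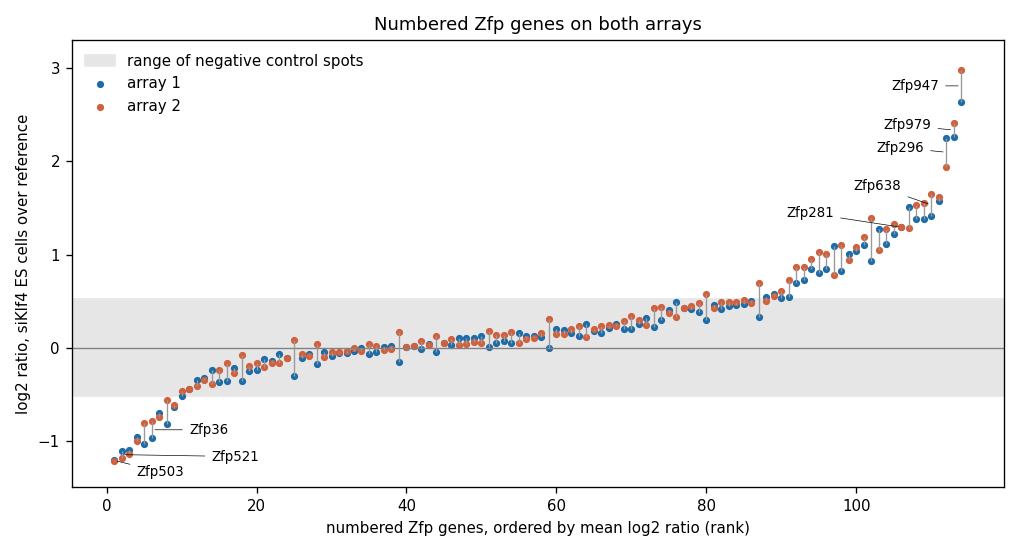
Log2 ratio of siKlf4 ES cells over reference on each array (blue and orange points, joined by a line) for 114 numbered Zfp genes, in order of their mean; grey marks ratios within 0.52 of 0, the range of the negative control spots. The right tail reaches 2.98 on array 2 for Zfp947, and the left tail ends at -1.22 for Zfp503.

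A channel was counted as detected above the 95th percentile of its negative control spots. Of the 114 genes, 103 passed this limit on both arrays in both channels (90.4%, against 86.0% of named genes). Zfp9 and Zfp521 were above it only in the reference, Zfp109 in neither channel on either array, and 8 genes on 1 array only in a channel. Fitted on detected probes alone, 56 of the 103 were called higher and 18 lower, where 32.4% and 30.3% of the probes in that fit were called. In that fit 15 members were called 2-fold higher and 1 lower, Zfp503, against 6.06% and 5.31% of the probes. Brighter members tended to have higher ratios (Pearson's r = 0.351, Spearman's rho = 0.255, 114 genes on shared arrays), against 0.0217 and 0.00656 over all probes. With probe GC content, which ran from 21.7% to 60.0%, the coefficients over the members were -0.0199 and 0.0315.

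The 3 highest genes stood apart from the rest. Zfp947 had log2 ratios of 2.64 and 2.98, from ES signals of 15232 and 23932 units above background and reference signals of 2597 and 2666. Such channel signals are not dye-normalized, unlike the ratios. The mean ratio of Zfp947 was 2.81 ± 0.25 (SD, n = 2) or 7.01-fold (limma, adjusted p = 5.13e-06). Zfp979 read 1132 and 1461 units in the ES cells against 220 and 232 in the reference. Its ratios of 2.26 and 2.41 gave 2.34 ± 0.10 or 5.05-fold (limma, adjusted p = 1.78e-06). Zfp296, an ES and germ cell protein known to bind Klf4, read 3354 and 3964 units against 778 and 972. Its ratios were 2.25 and 1.94, a mean of 2.10 ± 0.22 or 4.28-fold (limma, adjusted p = 9.70e-06). Without background correction they stood at 2.70, 1.41 and 1.76, all above 1.

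The next 12 genes were 2.08-fold to 3.02-fold higher. Zfp105 had ratios of 1.58 and 1.61 (mean 1.60 ± 0.024). Zfp638, a nuclear matrix protein that helps silence unintegrated retroviral DNA, had ratios of 1.41 and 1.65 (mean 1.53 ± 0.17). Zfp825 stood at 1.46 ± 0.12, Zfp64 at 1.45 ± 0.11 and Zfp1 at 1.40 ± 0.16. Zfp281, a regulator of Nanog, had nearly equal ratios of 1.29 and 1.29 and a mean of 1.29 ± 0.0016. These genes were above the reference on both arrays, and in each the array difference was small beside the ratio.

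Zfp612 (1.27), Zfp423 (1.19), Zfp553 (1.16), Zfp74 (1.16), Zfp97 (1.14) and Zfp598 (1.06) completed the 2-fold group. Zfp423 is a partner of Smads and of Ebf factors in fat precursors and neurons, and Zfp598 is a ubiquitin ligase that acts on collided ribosomes. Zfp74 had the largest difference between arrays of any member, with 0.93 and 1.39, and Zfp598 one of the smaller ones, with 1.04 and 1.08. The adjusted p of the 12 genes, by limma, ran from 2.36e-06 for Zfp105 to 0.000365 for Zfp74.

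A further 12 genes were called higher between the negative control range and 2-fold. Zfp871 (0.98), Zfp932 (0.97), Zfp772 (0.93), Zfp747 (0.93), Zfp866 (0.91) and Zfp706 (0.90) were the highest of these. Zfp772 was dim in the reference, with 53.8 and 64.0 units against limits of 40.9 and 58.4. Zfp239 (0.79), Zfp704 (0.78), Zfp639 (0.63), Zfp661 (0.57), Zfp219 (0.57) and Zfp646 (0.53) followed.

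The lower side was short and shallow. The members were dim in the reference, at a median of 231 and 232 units against 340 and 361 for named genes. Negative control spots read 129 and 138 units in the ES channel at the median, which limits how far a gene dim in the reference can fall. Whether this shortened the lower side was not tested. Zfp503, also called Nolz1, is a transcriptional repressor that acts in limb and striatal development. It had ratios of -1.20 and -1.22, from 253 and 277 units in the ES cells and 487 and 486 in the reference. Its mean was -1.21 ± 0.0090, or 2.31-fold higher in the reference (limma, adjusted p = 5.11e-06). Without background correction it stood at -0.55. Zfp521, an Ebf-binding factor of blood and bone progenitors, had ratios of -1.11 and -1.19, with 137 and 146 units in the ES cells. That channel did not pass the detection limit on either array. With it raised to the limit, the fitted ratio put the reference 1.79-fold higher, a bound that holds only with this background and loess correction. Before normalisation the reference read 147 and 160 units. Zfp9 read -1.10 and -1.14, but with its dim ES channel raised to the limit the reference was not higher, so no fold is given.

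Zfp90 (-0.98 ± 0.028) and Zfp68 (-0.92 ± 0.16) came next, then Zfp36 (-0.88 ± 0.13), Zfp385a (-0.72 ± 0.033), Zfp52 (-0.69 ± 0.19) and Zfp869 (-0.63 ± 0.016). Each was below the reference on both arrays, and each was called lower (limma, adjusted p from 1.13e-05 to 0.000456). The 5 next eligible genes, Zfp276, Zfp672, Zfp715, Zfp629 and Zfp319, were called lower at -0.49 to -0.31, inside the range of the negative controls.

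**Figure D2:**
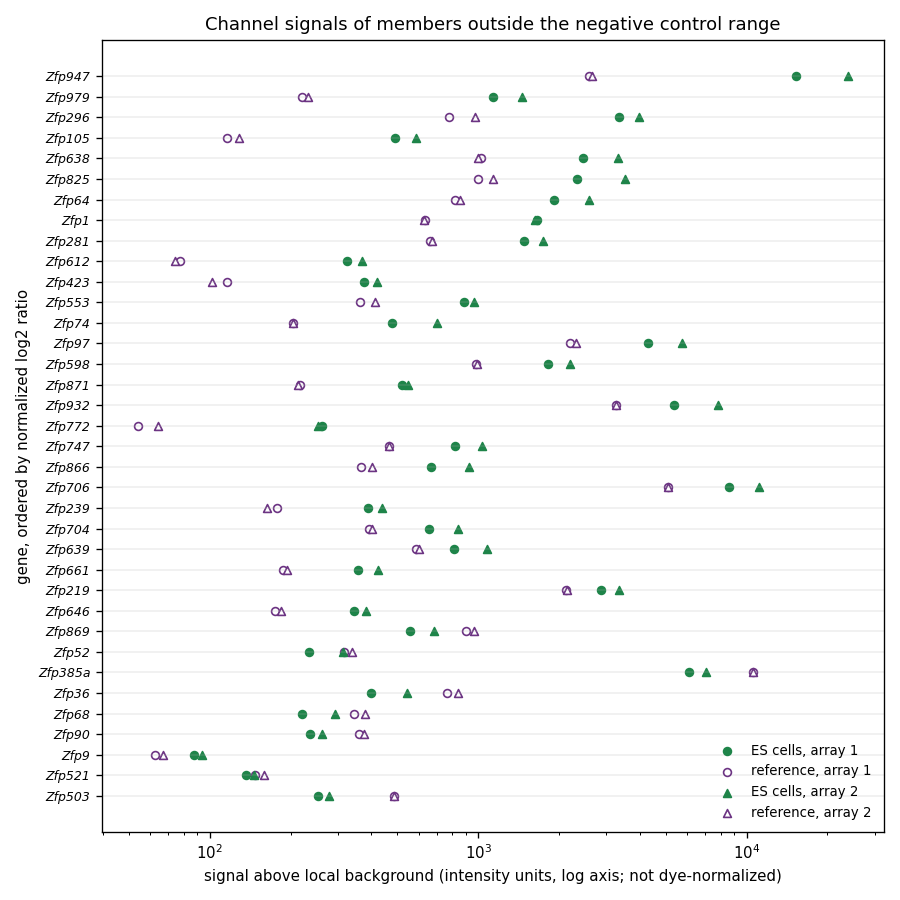
Signal above local background (log axis, not dye-normalized) in the ES channel (filled green) and the reference channel (open purple) on array 1 (circles) and array 2 (triangles), for the 36 called members outside the negative control range. ES signals lie to the right of the reference signals for the upper genes and to the left for Zfp503, Zfp36 and Zfp385a. For the dim Zfp9 the ES signal lies to the right although the normalized ratio is -1.12.

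Among the role lists, the list written for regulators of ES cells, imprinting and provirus silencing had the highest median. Of 19 listed genes 7 were measured, 7 were called higher and 0 lower, at a median of 0.97, where 34.8% and 34.2% of named genes were called. After Zfp296, Zfp281 and Zfp553 came Zfp932, which represses endogenous retroviruses, with ratios of 0.83 and 1.10. Zfp706, which favours exit from the ES state, had ratios of 0.85 and 0.95. Zfp110, a binding partner of the neurotrophin receptor p75, stood at 0.49 and Zfp143, a general activator of promoters, at 0.18, both inside the range of the negative controls. Zfp143 did not pass without background correction (limma, adjusted p = 0.0503). The list was written with earlier results of these data known, so its direction is no independent support. It holds Zfp110 and Zfp143, described here by other roles, while Zfp638 was placed in another list.

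Regulators of mesenchymal, immune and other lineages were called at about the background share in each direction. Of 20 listed genes 8 were measured, 3 were called higher (37.5%), 3 lower (37.5%) and 2 did not pass, against 34.8% and 34.2% of named genes. Their median was -0.01. Above the reference were Zfp423, Zfp704 and Zfp219, a co-factor of Sox9. Called lower were Zfp503, Zfp521 and Zfp608. Zfp608 stood at -0.34 with an ES channel under the detection limit on both arrays, and with that channel raised to the limit the reference was not higher. With median centring in place of loess Zfp608 stood at -0.12 and did not pass (limma, adjusted p = 0.0598). On detected probes alone 1 of the 3, Zfp503, was left as called lower. Zfp750, a regulator of skin differentiation, and Zfp467, a factor in fat and bone precursors, stood at 0.00 and -0.02 and did not pass.

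Of 4 listed CCCH factors, which bind AU-rich elements and speed mRNA decay, 2 were measured. Zfp36, or tristetraprolin, read 398 and 544 units in the ES cells against 764 and 843 in the reference, with ratios of -0.97 and -0.79. It was 1.84-fold lower in the ES cells (limma, adjusted p = 6.52e-05). Its relative Zfp36l1 changed sign between arrays (-0.05 and 0.12) and did not pass (adjusted p = 0.543).

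Of 14 listed proteins that bind RNA or work in the nucleolus or cytoplasm, 11 were measured. Called higher were 6 (54.5%) and lower 3 (27.3%), against 34.8% and 34.2% of named genes, and 2 did not pass. Their median was 0.19. Outside the range of the negative controls were Zfp638 above the reference and Zfp385a, an RNA-binding p53 target, below it. The double-stranded RNA binder Zfp346 and Zfp830 both stood at 0.43. The ribosome assembly factors Zfp593 and Zfp622 were called higher at 0.41 and 0.28, and so was Zfp512 at 0.19, a call lost with median centring (limma, adjusted p = 0.0810). Zfp318 (-0.16) and Zfp326 (-0.22) were called lower. The call of Zfp326, a splicing-linked protein, was lost in 4 alternatives, with limma's adjusted p between 0.0536 on detected probes alone and 0.192 without background correction. The mitotic protein Zfp207 (-0.01 and 0.31) and Zfp330 (-0.18 and 0.04) changed sign between arrays.

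The other 86 members belong to none of these lists and lay at a median of 0.11. Of them 42 were called higher and 16 lower, where 34.8% and 34.2% of named genes were called. Among them 10 were called 2-fold higher. The fitted ratio of Zfp9 also passed 2-fold on the reference side, but its bound did not.

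**Figure D3:**
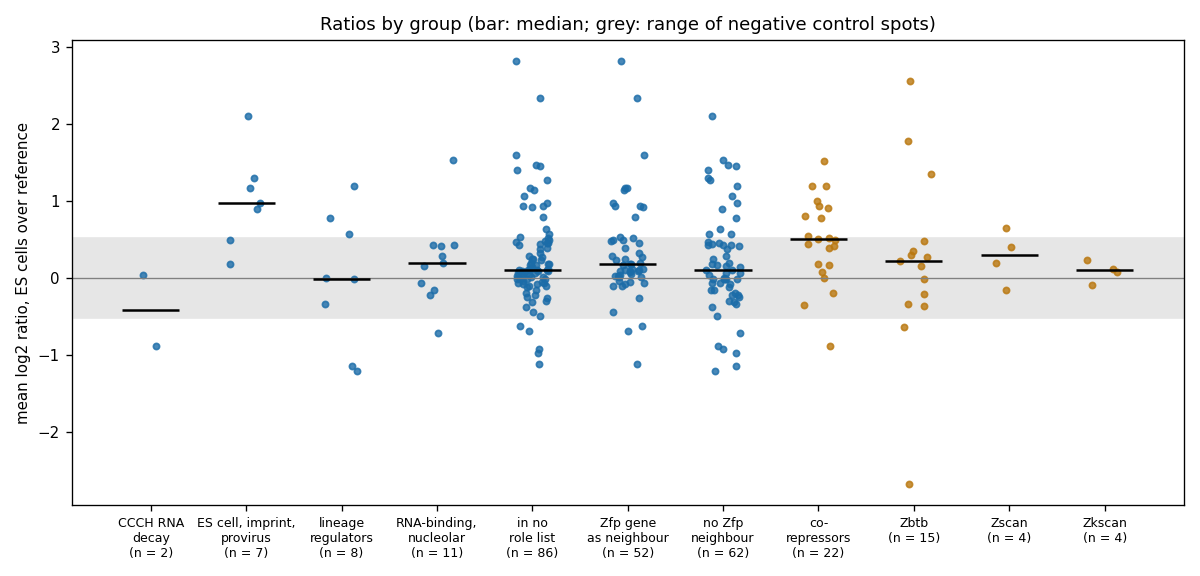
Mean log2 ratio of each gene (points; bars are medians) in the role lists, in members outside them, in members with and without an adjacent numbered Zfp gene (blue), and in co-repressors and the Zbtb, Zscan and Zkscan genes (orange); grey is the range of the negative control spots. The ES cell, imprint and provirus list lies wholly above 0, and the lineage list spans 1.19 to -1.21.

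Many Zfp genes sit in tandem clusters that arose by duplication. By gene order in the RefSeq table, 52 members had another numbered Zfp gene as a direct neighbour and 62 did not. The split follows symbols, so a member beside a gene named otherwise, such as Zfp113 beside Zscan21, counts among the 62. Of the 52 members 41 (78.8%) lay above the reference, 29 were called higher and 6 lower, at a median of 0.17. Of the others 35 (56.5%) lay above, 29 were called higher and 17 lower, at a median of 0.10. Called higher were thus 55.8% and 46.8%, and lower 11.5% and 27.4%, against 34.8% and 34.2% of named genes. Beyond the negative control range the shares called higher were 23.1% and 24.2%, against 15.9% of named genes. No test of this difference was made, since members of a cluster share sequence.

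In 9 cases both neighbours were measured, and 7 of these pairs, on 17 genes in all 9, lay on the same side of the reference. Of the 52 members with such a neighbour 78.8% lay above it, so a shared side is the more frequent outcome for any pair of them. Among the same-side pairs, Zfp128 (0.03), Zfp111 (0.01) and Zfp235 (0.03) did not pass. Zfp747 (0.93) and Zfp764 (0.23), Zfp668 (0.11) and Zfp646 (0.53), and Zfp959 (0.24) and Zfp119b (0.51) were each called higher together, though Zfp119b lost its call without background correction (limma, adjusted p = 0.0564). Zfp692 (0.49) and Zfp672 (-0.44) were called in opposite directions. Zfp52 was called lower at -0.69 beside Zfp53, which did not pass.

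Where a member probe shared a run of bases with a probe of another symbol, or with an unnamed probe, the partner's value is given. Of 120 member probes 8 shared at least 20 bases with another probe on the array. The Zfp947 probe shared 26 bases with a probe that has no symbol here and stood at 3.32 and 3.70. The printed Zfp97 probe shared 21 bases with an unnamed probe at 1.31, and the printed Zfp932 probe 22 bases with one at 1.22. The Zfp866 probe (0.91) shared 21 bases with an unnamed one at 1.47, and that of Zfp958 (0.44) shared 25 with one at 0.19. In 7 of the 8 cases both probes were called higher, where 31.6% of all probes and 51.7% of member probes were called higher. The cases are not separate, since probes of Zfp932 and Zfp947 enter more than 1 of them. An unnamed partner may also measure the same gene as the member probe, so a like direction need not be that of different genes. The share of cross-hybridised RNA in these ratios was not tested.

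The sizes of the ratios differed within these pairs. The exception in direction was the printed Zfp53 probe, which shared 20 bases with that of Zfp932, at -0.11 and 0.97. The dimmer Zfp932 probe shared 21 bases with that of Zfp947 and stood at 0.57, against 2.81. Zfp825 stood at 1.46, and a probe with 24 bases in common at 0.56.

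For 5 members more than 1 probe was measured, and the brightest was used. Both Zfp93 probes were called higher (0.35 and 0.39), as were both of Zfp110 (0.20 and 0.49) and both of Zfp932 (0.57 and 0.97). For Zfp330 the dimmer probe was called higher at 0.18 and the brighter stood at -0.07, while the 3 probes of Zfp282 lay between -0.09 and 0.11 with 1 called. No member had probes called on opposite sides.

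The arrays ranked the members alike, with a Pearson's r of 0.980 and a Spearman's rho of 0.963 across the 114 genes, which share both RNA samples and the reference. The median absolute difference between arrays was 0.070, against 0.059 over all probes. It was largest for Zfp74, followed by Zfp53 (-0.30 and 0.09), Zfp119b (0.33 and 0.69), Zfp947 (2.64 and 2.98) and Zfp334 (-0.16 and 0.17). Zfp53 and Zfp334 did not pass.

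**Figure D4:**
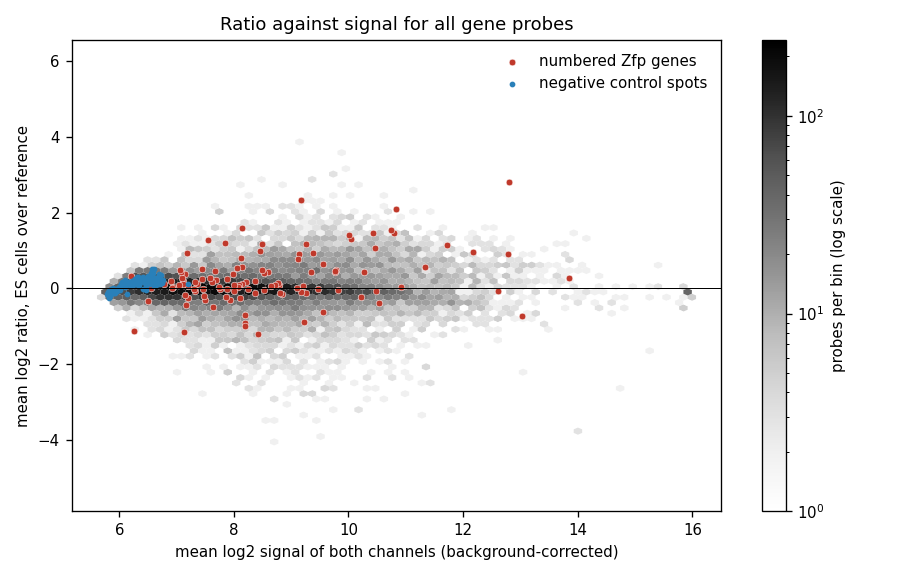
Mean log2 ratio against mean log2 signal of both channels for all gene probes (grey bins, log colour scale), with the 114 numbered Zfp genes in red and the 162 negative control spots in blue. The members lie between -1.21 and 2.81, well inside the range of all probes (-5.32 to 5.98).

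Most measured genes of the co-repressor machinery that KRAB zinc finger proteins use were called higher in the siKlf4 ES cells. Of 28 listed genes 22 were measured, with a median of 0.50. Of these 17 were called higher (77.3%), 3 lower (13.6%) and 2 did not pass, against 34.8% and 34.2% of named genes. They were brighter than named genes, at a median ES signal of 1210 and 1418 units against 376 and 437. Trim28, the scaffold that KRAB domains bind, had ratios of 1.64 and 1.40, a mean of 1.52 ± 0.17 or 2.87-fold (limma, adjusted p = 1.66e-05). Setdb1, its partner methyltransferase for histone H3, had ratios of 1.23 and 1.16 and was 2.29-fold higher. The deacetylase Hdac1 (1.19) and the Trim28 relative Trim24 (1.00) were also at least 2-fold higher, and Uhrf1 (0.94) and the heterochromatin protein Cbx1 (0.91) came close.

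Beyond the range of the negative controls 9 co-repressor genes were called higher (40.9%) and 1 lower (4.55%), against 15.9% and 14.2% of named genes. The lower one was the methyltransferase Suv39h1 at -0.88, whose ES channel passed the detection limit on 1 array only. Ehmt2 (-0.36) and Pias1 (-0.20) were called lower inside that range, and Atf7ip (0.00) did not pass.

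Related Cys2His2 families were too small to set against the members by more than counts. Of 15 Zbtb genes, which pair fingers with a BTB domain, 9 were called higher (60.0%) and 5 lower (33.3%), at a median of 0.22, against 34.8% and 34.2% of named genes. They spread more widely than the numbered Zfp genes, from Zbtb44 at 2.56 to Zbtb7a at -2.68. Of 4 Zscan genes 3 were called higher and 0 lower, and of 4 Zkscan genes 2 and 0, with none at 2-fold in either direction. No test of a difference between these families and the numbered Zfp genes was made.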

How the data were processed

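The arrays were scanned and read with Agilent Feature Extraction A.7.5.1, per the file headers. Each deposited scanner file gives intensity per spot in scanner units: a mean signal, a local background median and a processed signal for both dyes. The deposited log10 ratio of a spot is its red over its green processed signal. For the deposited series table, in log10 values, no method is stated in the labels. From its values, each is the mean log10 red signal of both arrays minus that ratio, within 2e-04 for 99.6% of probes.

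Here limma 3.58.1 (R 4.3.3) was used to correct the mean signals for background (normexp, offset 50). Ratios were normalised by loess with control spots at weight 0, and turned to ES cells over reference. Outlier spots removed 24 of 21052 probes. Means were tested against 0 with limma (lmFit, eBayes) and Benjamini-Hochberg adjustment over 21028 probes. In 10 simulations with this number of probes, 200 of them changed, 97.0% and 99.9% of probes changed by 0.5 and 1 were called. Unchanged probes made up 7.45% of those calls. The simulated noise was independent and centred on 0, without a dye effect or a bias of dim spots. In the data 115 of 162 negative control spots passed the adjusted p, so the 7.45% does not give the error of the calls reported here. Precision is limited by 2 arrays. Since the scanner software's well-above-background flag was set for 100% of gene probes in the ES channel, a probe was classed against the 95th percentile of negative control spots (155 and 178 units in the ES channel, 40.9 and 58.4 in the reference). A bound raises the dim channel to that limit, with the loess correction kept.

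Symbols came from a RefSeq table (GRCm38.p6), used for names and neighbours only: 10422 probes received 1 symbol, and 10630 received none. The brightest probe stood for a gene. Named were Klf4, the 14 highest and 14 lowest called members above the limit in a channel, role list members, the 5 largest array differences, members with discordant probes, and co-repressors at 2-fold with Trim28 and Setdb1; other genes were named after their values were seen. Members and lists were chosen with earlier results of these data known. A planned split by protein features was not made, since no protein sequences were used here. The value of 1 co-repressor gene is not reported here.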

Additional observations from a re-analysis of the deposited data

How the results depend on the processing

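The counts of members above and below the reference, and of members called higher and lower, stayed within 1.5 times of those reported under no background correction, plain subtraction, median centring, the deposited log ratio, the series table, the filter on dim probes, the mean of all probes, outlier spots kept and another limma prior. The exception was added with the data in view: a limit beyond every negative control spot left 27 called higher and 9 lower. Without background correction 8 members were at least 2-fold higher, 0 at least 2-fold lower, and the median was 0.048. The share of all probes at 2-fold under that setting is not given here. Median centring gave a median of 0.22. On detected probes alone 103 members were fitted, with a median of 0.17, 1 at least 2-fold lower and 1 lineage regulator called lower; this setting leaves out Zfp521 and Zfp9. With 1 array left the median ran from 0.13 to 0.15, with 16 to 18 members at least 2-fold higher and 3 to 4 lower, without a test. The causes were not tested. Of 55 named genes, Zfp53, Zfp750 and Zfp207 passed with median centring (-0.26, -0.22 and 0.37). None of these 55 reversed its call under a setting run; the other genes named were not followed. No paired analysis was possible because the samples form 1 group. Signal over background limits the ratios of the 11 members not detected in both channels.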

Other observations

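Probes with no symbol in the gene table were searched for the same linker and finger motifs, and the picture depended on the form of the motif. Of 135 such probes with GAGAAACC or TGTGGNAA, 71 lay above the reference and 64 below, at a median log2 ratio of 0.01. By limma 46 (34.1%) were called higher and 34 (25.2%) lower, against 31.6% and 31.4% of all probes tested. Longer but looser patterns were tried first and were held by 34 unnamed probes. They reach further along the linker on both sides and along the finger towards its 3′ end. They also leave free some bases that the short motifs fix, so the 34 need not all be among the 135. Of the 34, 26 lay above the reference and 8 below, 20 were called higher (58.8%) and 3 lower (8.82%), and the median was 0.31. Called beyond the negative control range were 14 of the 34 above the reference (41.2%) and 0 below. Of the 135, 23 (17.0%) were called above that range and 6 (4.44%) below, against 12.1% and 10.8% of all probes tested. The highest unnamed probe in both sets read 3.68 and 3.96 on the arrays. Whether these probes measure unnamed zinc finger transcripts or RNA of named ones was not tested.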
